A study of Mus musculus with 23 samples.

Results

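A set of 10 genes that mark primed pluripotency and the first embryonic lineages were followed in mouse embryonic stem cells (ESCs) after acute deletion of Zbtb11, a zinc-finger and BTB domain transcription factor. They were Otx2, Fgf5, Pou3f1, Lefty1, Lefty2, Nodal, Gata6, Krt8, Krt18 and T. The genes were found by their GENCODE symbols among the 37310 gene rows of the RNA-seq count tables, and 10 of 10 were present. Of these, 7 passed the filter on low values (above 1 CPM, counts per 1000000 reads on genes, in at least 3 of 9 libraries), as did 14346 genes in all. Fgf5, Pou3f1 and T were under 1 CPM in every library, though the reads of Pou3f1 do not measure its level, as explained below. The comparisons address whether the levels of these genes differed 48 h after the deletion was induced.

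RNA-seq was performed at 48 h in 3 groups of 3 biological replicates, all derived from the E14 line and grown without feeder cells in serum and leukaemia inhibitory factor. The EtOH control was the Zbtb11lox/lox line with ERt2-Cre in the Rosa26 locus, treated with ethanol as carrier. The Zbtb11 KO group was the same line given 250 nM 4-hydroxytamoxifen (4OHT), which activates the Cre and removes exon 3 of Zbtb11. The 4OHT control was Zbtb11WT/WT with an unmodified Rosa26 locus, given the same 4OHT dose. Each genotype is a single line, so in any comparison with the 4OHT control the line, the Cre transgene and the loxP sites cannot be told apart from the treatment or the deletion. ChIP-seq was available for Zbtb11 in 4 libraries of untreated E14 WT cells, and for FLAG-Zbtb11 in 3 libraries of untreated Zbtb11FLAG/FLAG cells with 2 FLAG control libraries of WT cells.

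Nodal is a secreted TGF-beta family ligand that signals through activin receptors, Smad proteins and Foxh1, and its own gene and those of its extracellular inhibitors Lefty1 and Lefty2 are among its targets. Otx2 is a homeobox transcription factor that accompanies the passage from naive to primed pluripotency, in which Fgf5 and Pou3f1 are switched on. Gata6 drives the primitive endoderm, T (Brachyury) marks the primitive streak, and Krt8 and Krt18 encode the paired keratins of simple epithelia, including the trophectoderm. ESCs in serum are mixed cultures in which some cells express such genes at low level. In bulk RNA-seq fewer cells expressing a gene and less RNA per cell cannot be told apart.

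The libraries held 14301457 to 23876604 reads on genes. The cells carried the transcripts of ESCs, with Pou5f1, Sox2, Nanog, Zfp42, Esrrb and Klf4 between 211 and 819 CPM in every library. Of 8 fibroblast genes checked, 4 were under 1 CPM in every library (Lum at 0, Postn, Twist2 and Col3a1), and 4 were detected. Thy1 was at 6.49 to 13.2 CPM, Col1a1 at 5.54 to 12.2, Col1a2 at 0.649 to 3.77 and Acta2 at 0.629 to 18.3 CPM. Deletion could not be followed by the count of the gene itself, because the annotation joins Zbtb11 transcripts to Rpl24. In each group replicate 1 stood apart from replicates 2 and 3. Libraries with the same number had r of 0.43 to 0.82 across genes after removal of group means. For different numbers r reached 0.53, so replicates 2 and 3 were not clearly told apart. The markers' results, and the counts over gene lists, are given also with the replicate number as a block where that changes them. Replicate 1 had 14301457 to 18872759 reads on genes and the other libraries 20172766 to 23876604. The part of depth in the differences between replicates was not tested.

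Levels per gene length ordered the markers. Lefty1 was highest at 59.2 ± 14.3 CPM per kb of exon (mean and SD, n = 9 libraries), above 93.9% of the tested genes. Nodal followed at 26.5 ± 2.504 and Lefty2 at 24.1 ± 6.83 CPM per kb, and their ranges over the 9 libraries overlapped. Krt18 was at 7.09 ± 2.07, Otx2 at 6.82 ± 2.04 and Krt8 at 4.21 ± 0.927 CPM per kb, close to the median tested gene at 5.79 CPM per kb. The ranges of Krt18 and Otx2 overlapped, and so did those of Otx2 and Krt8, although Otx2 was above Krt8 in each of the 9 libraries. The levels of Lefty1, Lefty2 and Krt8, and so their places in this order, are uncertain because of near-identical sequence elsewhere, as described below. Gata6 lay far lower at 0.542 ± 0.249 CPM per kb, T at 0.199 ± 0.0376 and Fgf5 at 0.0929 ± 0.0685. Nodal and its inhibitors were thus the most abundant of the set per length, and T and Fgf5 the least among the genes whose level could be read.

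**Figure D1:**
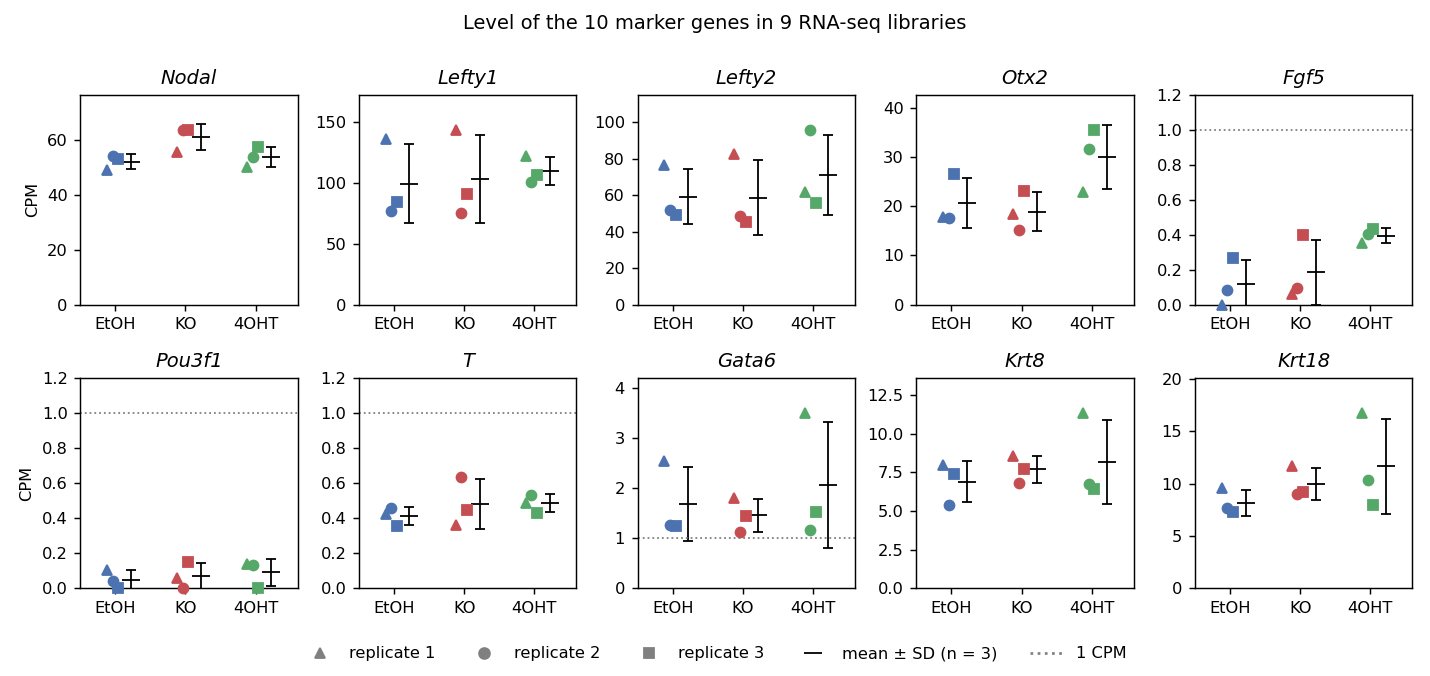
Level of each of the 10 genes in CPM (vertical axis, from 0, with its own range per gene) in the EtOH control, Zbtb11 KO and 4OHT control libraries (horizontal axis). Symbols are replicates, black bars are mean ± SD (n = 3), and the dotted line marks 1 CPM in genes near it. Fgf5, Pou3f1 and T stayed under 1 CPM, where the reads of Pou3f1 do not measure its level. The triangles of replicate 1 lay above the other replicates of their group for Lefty1, Gata6, Krt8 and Krt18.

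None of the 7 tested markers passed the threshold between Zbtb11 KO and EtOH control, the comparison within a single line. In edgeR's quasi-likelihood test across all genes 0 of 7 had an adjusted p under 0.05, 0 of 7 had an unadjusted p under 0.05, and DESeq2 called 0 of 7. Of all 14346 genes tested 0.899% were called in this comparison, 0.0558% higher and 0.843% lower in the KO, and 2.8% had an unadjusted p under 0.05. The log2 fold changes of the markers lay between -0.24 for Gata6 and 0.26 for Krt18, with a median of 0.02 against -0.0006 over all genes tested. The 95% intervals of the 7 genes reached together from -1.23 to 0.81 on the log2 scale. With the replicate block 0 of 7 were called as well, where 2.25% of all genes were (0.46% higher and 1.79% lower). Without replicate 1 the count was again 0 of 7, where 1.5% of all genes were called (0.148% higher and 1.35% lower).

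Nodal, the ligand, was the marker with the narrowest interval. It was at 48.9, 53.99 and 53.1 CPM in replicates 1 to 3 of the EtOH control, at 55.5, 63.8 and 63.6 CPM in the Zbtb11 KO and at 50.1, 53.8 and 57.4 CPM in the 4OHT control. In CPM the KO libraries all lay above the EtOH control libraries, narrowly so (55.5 against 53.99), and 8.04% of the tested genes had no overlap in either direction. After TMM scaling the groups overlapped, as KO replicate 1 then lay below EtOH control replicates 2 and 3. The log2 fold change of KO against EtOH control was 0.19 (95% interval -0.04 to 0.43, adjusted p = 1). Paired by replicate number, Nodal was higher in the KO in 3 of 3 pairs, by 0.16, 0.19 and 0.21 on the log2 scale. In the fit with the replicate block the value was 0.19 with an unadjusted p of 0.00282 and an adjusted p of 0.103, so it did not pass there. KO and 4OHT control libraries overlapped, and their difference of 0.15 on the log2 scale (adjusted p = 0.508) passed only with the block, where it was 0.15 with an adjusted p of 0.041.

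Lefty1 and Lefty2 are neighbours on chromosome 1 of mm9, Lefty2 at chr1:182823239-182829234 and Lefty1 at chr1:182865153-182868531, both on the plus strand and 35.9 kb apart. Part of their exon sequence is nearly identical, so the counting could split or lose reads between them and both levels are uncertain. Runs over 100 bases that matched Lefty2 at 95% identity or more made up 41.6% of the exon bases of Lefty1, and the reciprocal share of Lefty2 was 28.2%.

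The upstream sequences of the Lefty genes are shown, since both genes are targets of Nodal, for the 250 bases before each start, in mm9. The letters TATAAA (capitals, searched on both strands) occur in both, as in 3 of the 10 markers (Otx2 is the other) and in 12.3% of the 22380 protein-coding genes.
Lefty1 upstream, chr1:182864903-182865152, plus strand: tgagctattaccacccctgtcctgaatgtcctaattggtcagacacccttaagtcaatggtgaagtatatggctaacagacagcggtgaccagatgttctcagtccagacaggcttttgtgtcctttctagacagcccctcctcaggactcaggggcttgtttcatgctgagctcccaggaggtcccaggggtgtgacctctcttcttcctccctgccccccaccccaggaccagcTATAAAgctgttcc
Lefty2 upstream, chr1:182822989-182823238, plus strand: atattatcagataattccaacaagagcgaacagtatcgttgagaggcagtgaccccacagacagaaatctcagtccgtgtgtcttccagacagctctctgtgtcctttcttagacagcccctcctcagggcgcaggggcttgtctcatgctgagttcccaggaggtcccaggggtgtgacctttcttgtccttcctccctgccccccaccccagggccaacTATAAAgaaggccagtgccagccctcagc
The letters TGTGGATT, TGTGTATT, TGTTGATT and TGTTTATT, forms of the Foxh1 motif, were in neither window on either strand nor in that of another marker. They were in 3.59% of the windows of all protein-coding genes, so most windows lack them. Only these 250 bases were searched, and Foxh1 sites elsewhere near the markers were not assessed.

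Lefty1, an inhibitor of Nodal, was at 136, 77.1 and 84.5 CPM in replicates 1 to 3 of the EtOH control, at 144, 75.04 and 90.6 CPM in the Zbtb11 KO and at 122, 100.3 and 106 CPM in the 4OHT control. Replicate 1 was the highest library of each group, and the groups overlapped. Against the EtOH control the KO differed by 0.02 on the log2 scale (95% interval -0.55 to 0.59). With the replicate block the interval closed to -0.16 to 0.19.

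Lefty2, the second inhibitor, was at 76.6, 52.0 and 49.0 CPM in the EtOH control, at 82.4, 48.5 and 45.1 CPM in the KO and at 61.6, 95.9 and 55.6 CPM in the 4OHT control. Replicate 1 was the highest in the EtOH control and the KO, and replicate 2 in the 4OHT control. The KO differed from the EtOH control by -0.05 (95% interval -0.68 to 0.58) and, with the block, the interval was -0.38 to 0.25.

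The Lefty genes passed the threshold only in comparisons with the 4OHT control and only where replicate 1 was left out. There the 4OHT control was higher than the EtOH control by 0.35 for Lefty1 (adjusted p = 0.0257) and by 0.57 for Lefty2 (adjusted p = 0.0455). The KO was lower than the 4OHT control by -0.36 for Lefty1 (adjusted p = 0.0203) and -0.73 for Lefty2 (adjusted p = 0.0151). In those fits 17.1% of all genes were called between the controls (8.86% rising and 8.22% falling from EtOH to 4OHT control) and 18.7% between KO and 4OHT control (8.38% higher and 10.3% lower in the KO). With replicate 1 kept and replicate 2 left out, the Lefty2 values turned to -0.10 and 0.09. These comparisons share their controls, and within the line the KO and EtOH control libraries of replicates 2 and 3 stood between 75.04 and 90.6 CPM for Lefty1 and between 45.1 and 52.0 CPM for Lefty2.

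Otx2 (chr14:49277354-49287319, minus strand, mm9) had the largest log2 fold changes of the 7 markers against the 4OHT control in the fit on all 9 libraries, though not with replicate 2 left out, where Krt18 (between the controls) and Gata6 (between KO and 4OHT control) had larger ones, nor between the controls with replicate 3 left out, where Krt18 did. It was at 17.8, 17.5 and 26.5 CPM in the EtOH control, at 18.4, 15.1 and 23.1 CPM in the KO and at 22.9, 31.6 and 35.5 CPM in the 4OHT control. Within each replicate number the 4OHT control was the highest of the 3 groups, while across numbers the groups overlapped. The KO differed from the EtOH control by -0.17 (SE 0.24, 95% interval -0.72 to 0.38, adjusted p = 1), and was lower in 2 of 3 pairs. The 4OHT control was higher than the EtOH control by 0.54 (SE 0.24, adjusted p = 0.290), in 3 of 3 pairs. The KO was lower than the 4OHT control by -0.70 (SE 0.24, unadjusted p = 0.0178, adjusted p = 0.142), in 3 of 3 pairs. With the replicate block these last values were 0.55 (adjusted p = 0.00026) and -0.71 (adjusted p = 1.6e-05), against -0.16 (adjusted p = 0.666) between KO and EtOH control. Without replicate 1 Otx2 passed between KO and 4OHT control (-0.85, adjusted p = 0.0119), where 18.7% of all genes did. Between the controls it did not (0.60, adjusted p = 0.054). Without replicate 2 the values fell to -0.53 (adjusted p = 0.831) and 0.39 (adjusted p = 0.971), and without replicate 3 neither passed.

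**Figure D2:**
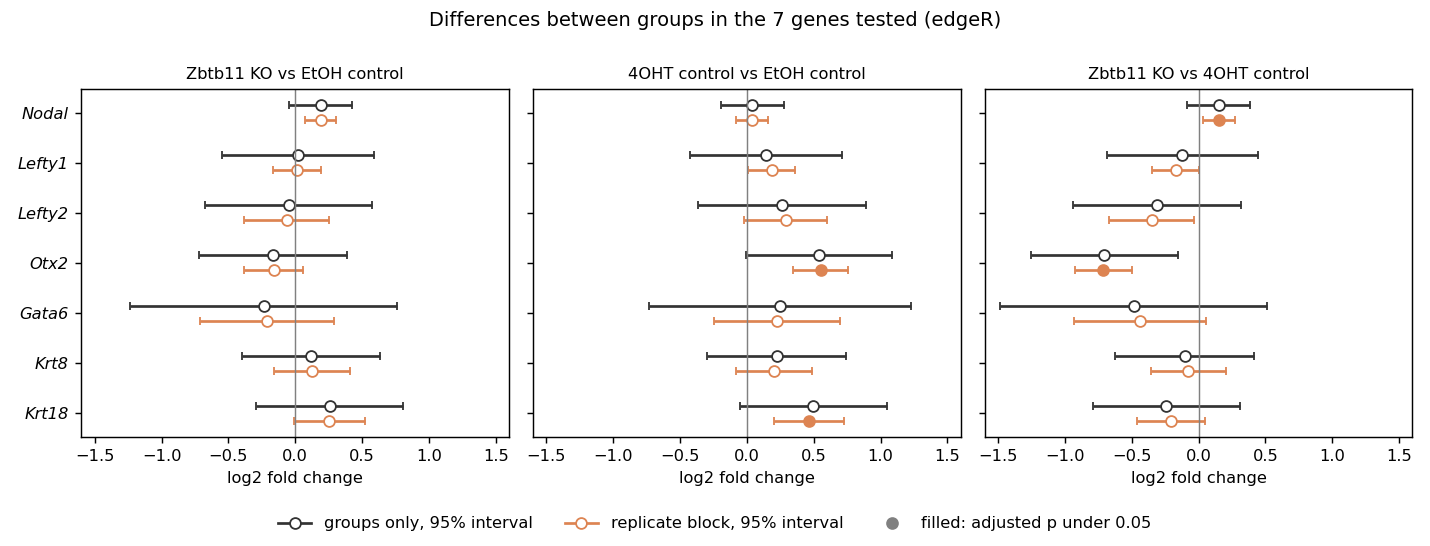
Log2 fold change (horizontal axis) of the 7 tested genes (vertical axis) in 3 comparisons, with 95% intervals, from the edgeR fit on groups only (dark) and with the replicate block (orange). Filled points have an adjusted p under 0.05, which are Otx2 and Krt18 between the 4OHT and EtOH controls and Otx2 and Nodal between Zbtb11 KO and 4OHT control, all with the block, and none between Zbtb11 KO and EtOH control.

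Of the other primed markers Fgf5 was barely detected, and the level of Pou3f1 could not be read. Fgf5, a growth factor of the primed epiblast, had 0 to 10 reads per library, or 0 to 0.433 CPM. It was at 0, 0.0838 and 0.268 CPM in the EtOH control, at 0.0601, 0.098 and 0.397 CPM in the KO and at 0.350, 0.402 and 0.433 CPM in the 4OHT control. The 4OHT control libraries lay above those of the EtOH control and overlapped the KO, on 5 to 10 reads each. Being below the filter, Fgf5 was not in the main test. An alternative fit without the filter called 0 markers between these controls. Between these controls 21.6% of the genes past the filter had no overlap in either direction. Pou3f1 (Oct6), a POU transcription factor of the primed state and neural progenitors, had 0 to 3 reads per library. This is no measure of its level, because 3003 of its 3004 exon bases are also covered, on the same strand, by a pseudogene row with the same symbol, and a read within both is counted for neither.

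Gata6, the primitive endoderm regulator, stood just above 1 CPM with 23 to 50 reads per library. It was at 2.54, 1.26 and 1.25 CPM in the EtOH control, at 1.80, 1.13 and 1.44 CPM in the KO and at 3.50, 1.16 and 1.52 CPM in the 4OHT control. Replicate 1 was highest in each group. The KO differed from the EtOH control by -0.24 (95% interval -1.23 to 0.76), the widest interval of the set, and Gata6 passed in no comparison, with or without the block.

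T, the primitive streak gene Brachyury, had 6 to 13 reads per library. It was at 0.424, 0.461 and 0.358 CPM in the EtOH control, at 0.360, 0.637 and 0.446 CPM in the KO and at 0.489, 0.535 and 0.433 CPM in the 4OHT control. The groups overlapped, and all libraries were under 1 CPM.

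Krt8 and Krt18, which form keratin filaments together, lie 23.9 kb apart on chromosome 15. Krt8 was at 7.95, 5.40 and 7.38 CPM in the EtOH control, at 8.53, 6.81 and 7.73 CPM in the KO and at 11.3, 6.78 and 6.45 CPM in the 4OHT control. Its level is uncertain, since a copy with 97.9% identity over 1734 bases lies within Nlrp4e (chr7:24142113-24143830), against 1805 exon bases of Krt8. Krt18, with no such copy, was at 9.54, 7.62 and 7.25 CPM in the EtOH control, at 11.7, 8.96 and 9.22 CPM in the KO and at 16.7, 10.4 and 7.92 CPM in the 4OHT control. The groups overlapped for both genes.

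Krt18 was higher in the KO than in the EtOH control in 3 of 3 pairs, by 0.27, 0.19 and 0.30 on the log2 scale, and Krt8 in 3 of 3 by 0.08, 0.28 and 0.02. The fitted values were 0.26 for Krt18 (95% interval -0.30 to 0.81, adjusted p = 1) and 0.12 for Krt8 (95% interval -0.40 to 0.64, adjusted p = 1). With the block Krt18 had an adjusted p of 0.530 here. Between the 4OHT and EtOH controls Krt18 differed by 0.50 (adjusted p = 0.336), and by 0.46 with the block (adjusted p = 0.0071), while replicate 1 held the largest of the 3 paired differences, 0.80 against 0.42 and 0.12. Without replicate 1 that difference was 0.29 (adjusted p = 0.231).

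In the comparisons with the 4OHT control 0 of 7 markers passed the fit on groups. Of all genes 4.06% were called between the 4OHT and EtOH controls (2.06% rising and 2.01% falling from EtOH to 4OHT control) and 6.45% between KO and 4OHT control (2.73% higher and 3.72% lower in the KO). At an unadjusted p under 0.05 the counts were 0 and 1 (Otx2) of 7, where 18 and 19.2% of all genes were, and DESeq2 called 0 of 7 in each. With the replicate block 2 of 7 passed in each, against 33.6 and 34.9% of all genes, which is no excess among the markers. Both were higher in the 4OHT control than in the EtOH control (17% of all genes higher and 16.5% lower), and 1 was higher and 1 lower in the KO than in the 4OHT control (16.9 and 18.1% of all genes). Without overlap between groups were 0 of 7 in each comparison, where 21.6 and 23.5% of all genes were.

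The replicate number accounted for more of the variation of most markers than the group did. In a division of the sum of squares of TMM-scaled log2 CPM over the 9 libraries, it took 76.9% for Gata6, 76.6% for Lefty1, 60.9% for Krt8, 58.2% for Nodal and 50.9% for Krt18, and the median over all tested genes was 49.8%. The group took most only for Otx2, 52.3% against 37.2%, and for Lefty2 the rest was largest at 52.1%. The medians over all tested genes were 24.9% for the group and 12.3% for the rest. On the same TMM-scaled log2 CPM, the 3 libraries of replicate 1 lay above the 6 others for Lefty1, Gata6 and Krt8 and below them for Nodal, 4 of 7 markers, and 35.8% of all genes were separated in this way. In unscaled CPM Nodal was not separated, since KO replicate 1 (55.5 CPM) exceeded 3 of the 6 others.

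**Figure D3:**
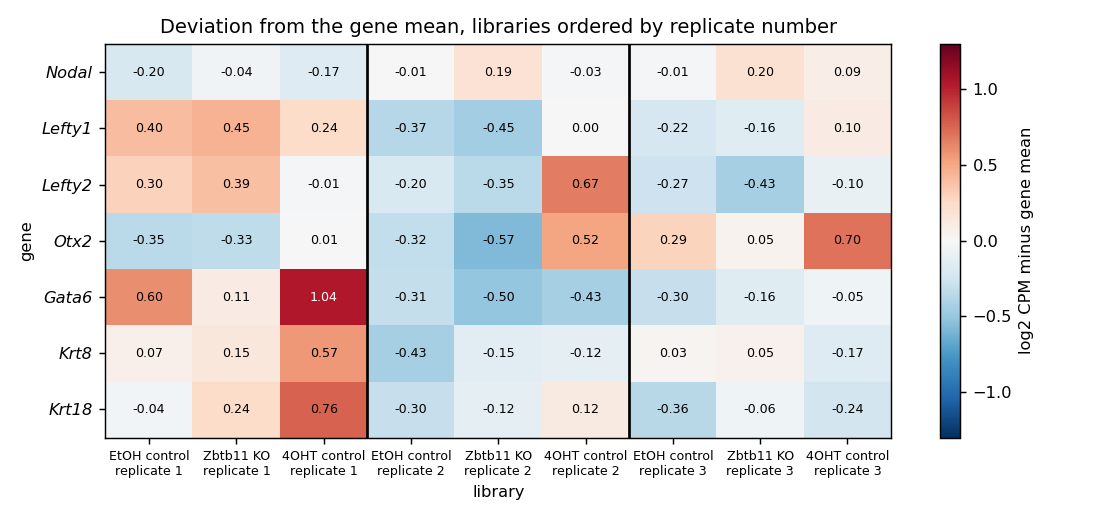
TMM-scaled log2 CPM minus the mean of the gene (colour and printed value) for the 7 tested genes (rows) in the 9 libraries (columns, ordered by replicate number). The 3 libraries of replicate 1 are high for Lefty1, Gata6 and Krt8 and low for Nodal, and Otx2 is highest in the 4OHT control within each replicate number.

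Across the 9 libraries the 2 keratins varied together (r = 0.83), each with Gata6 (r = 0.80 for Krt8 and 0.73 for Krt18). The 2 Lefty genes correlated at 0.66, and Nodal ran against Lefty1 (r = -0.67), Lefty2 (r = -0.59) and Gata6 (r = -0.73). Otx2 followed none of the others, with r between -0.12 and 0.16. These values describe libraries that share replicate number, line and depth. The genes most like each marker by the same measure were Klhl9, Odz3 and Gm5595 for Otx2 (r of 0.96, 0.95 and 0.94), Fam18b, Arfgef1 and Fam78a for Lefty1 (0.97, 0.97 and 0.96), Chchd8 and Tspyl1 for Lefty2 (0.93 and 0.92) and Vps52, Tprkb and Trpv2 for Nodal (0.98, 0.96 and 0.95). They were Icam1, Bsg and Eno1 for Gata6 (0.98, 0.97 and 0.97), Gm11611, Foxn3 and Syt12 for Krt8 (0.96, 0.96 and 0.95) and Bcr, Npdc1 and Ap1m2 for Krt18 (0.97, 0.97 and 0.96).

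The wider pathways were counted in the same way. Of 22 further genes of Nodal and Activin signalling (ligands, receptors, co-receptors, Smads, processing enzymes and inhibitors) 18 were tested, and 0 passed between KO and EtOH control, with and without the block. The same count of 0 held in this comparison for 20 tested genes of the primed state, 13 of the primitive endoderm, 6 of the primitive streak, 11 of trophectoderm and simple epithelium, 3 of neural ectoderm, 10 of naive and general pluripotency and 4 of fibroblasts. Only 0.899% of all genes were called in this comparison, and 2.25% with the block. Median log2 fold changes of these lists lay between -0.13 and 0.10.

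Between the 4OHT and EtOH controls single genes of the lists passed the threshold. Among primed genes Cdh2, an adhesion molecule, was lower in the 4OHT control than in the EtOH control (-1.09, SE 0.22, adjusted p = 0.0295) and Fgfr1, an FGF receptor, higher (0.38, SE 0.08, adjusted p = 0.0411). Among primitive endoderm genes the laminin gene Lama1 was lower (-0.98, SE 0.07, adjusted p = 0.00016). Axin2, a Wnt target in the streak list, was higher (0.85, SE 0.14, adjusted p = 0.0136). Dppa3, a gene of naive cells, was lower (-1.54, SE 0.14, adjusted p = 0.00086). It was the only gene of the 10 in the pluripotency list to pass, and with the block that list went both ways. In the Nodal list 0 of 18 passed. With the block 4 rose and 2 fell, a share of the list like that of all genes (33.6%), the largest being Gdf3, a Nodal-related ligand (-0.57, adjusted p = 5.7e-06), and the activin receptor Acvr2b (0.50, adjusted p = 0.00039). Of the fibroblast list Acta2 (-3.47, adjusted p = 0.0097) and Col1a2 (-2.002, adjusted p = 0.0051) were lower in the 4OHT control, and its 8 genes summed to between 23.5 and 37.2 CPM per EtOH control library, 27.4 and 38.5 per KO library and 17.2 and 24.2 per 4OHT control library. Their part in the differences of the markers was not tested.

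The replicate block raised the counts in most other lists too, beside 17% of all genes higher and 16.5% lower in the 4OHT control. Of the primed list 5 were then higher and 6 lower of 20, of the primitive endoderm 1 and 5 of 13, of the primitive streak 2 and 0 of 6, of trophectoderm and simple epithelium 2 and 2 of 11, of the fibroblast list 1 and 2 of 4, and of the neural list 0 and 0 of 3. The pluripotency list went both ways, with 4 higher and 3 lower of 10. Dppa3 (-1.55, adjusted p = 7.3e-12) and Tfcp2l1 (-0.45, adjusted p = 1.3e-06) were lower and Klf4 (0.44, adjusted p = 2.3e-05) was higher.

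Between KO and 4OHT control Cdh2 (1.07, adjusted p = 0.0224), Lama1 (1.01, adjusted p = 4.1e-05) and Dppa3 (1.49, adjusted p = 0.00034) were higher in the KO, and Axin2 was lower (-0.80, adjusted p = 0.0099). The basement membrane genes Sparc (0.52, adjusted p = 0.0434) and Lamb1 (0.38, adjusted p = 0.032) were also higher, and the streak transcription factor Eomes was lower (-0.74, adjusted p = 0.0287). Of the fibroblast list Acta2 (3.52, adjusted p = 0.0045) and Col1a2 (1.96, adjusted p = 0.0026) were higher in the KO. With the block the counts higher and lower in the KO were 1 and 4 of 18 in the Nodal list, 4 and 7 of 20 in the primed list, 5 and 1 of 13 in primitive endoderm, 0 and 3 of 6 in primitive streak, 1 and 3 of 11 in trophectoderm, 3 and 5 of 10 in pluripotency, 3 and 1 of 4 in fibroblasts and 0 and 0 of 3 in neural ectoderm, beside 16.9 and 18.1% of all genes. This comparison shares the 4OHT control libraries with the one before.

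The position of replicate 1 was counted over the lists on the same TMM-scaled values. It lay below all other libraries for 12 of 20 primed genes and above them for 2, and above them for 6 and below for 1 of 11 genes of trophectoderm and simple epithelium, shares over the 35.8% of all genes. In the other lists the share was near or under that of all genes, with 4 above and 0 below of 13 in primitive endoderm, 5 and 1 of 18 in Nodal and Activin signalling, 2 and 0 of 6 in primitive streak, 0 and 1 of 3 in neural ectoderm, 0 and 1 of 10 in pluripotency and 0 and 0 of 4 in fibroblasts. Over all tested genes it lay above for 2629 and below for 2504 of 14346.

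Zbtb11 peaks were then sought at the promoters of the markers, from 2 kb upstream to 500 bases downstream of the gene start. Of the 7500 consensus peaks, shared by the Zbtb11 and FLAG-Zbtb11 sets, 0 lay at the promoter of any of the 10 markers. Among genes that passed the filter, the count was 0 of 7 markers against 28.1% of all tested genes. It was 0 of 7 (and 0 of 10) also with all Zbtb11 peaks (33% of tested genes), with all FLAG-Zbtb11 peaks (33.5%) and within 1 kb on each side of the start (28%). Within 5 kb on each side it was 1 of 7, Gata6 (32.3%). For the tested genes of the other lists the counts were 3 of 18 in Nodal and Activin signalling (Acvr2a, Smad2 and Skil), 2 of 20 in the primed list (Etv4 and Spry2), 2 of 13 in primitive endoderm, 1 of 6 in primitive streak, 2 of 11 in trophectoderm, 0 of 3 in neural ectoderm, 1 of 10 in pluripotency (Pou5f1) and 0 of 4 in fibroblasts. The named genes were chosen after the peaks were seen.

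Within 10 kb of a start, 2 of the 7 tested markers had a consensus peak, against 37.1% of tested genes. Otx2 had a peak centred 6.9 kb upstream (chr14:49293616-49294815) and a peak centred 6.19 kb downstream of its start, inside the gene (chr14:49280525-49281724), where the annotation has a coding exon and the first exon of a shorter transcript. If the starts of all annotated transcripts are used, this inner peak makes Otx2 the 1 marker of 7 tested with a promoter peak (31.1% of tested genes). Gata6 had a peak centred 3.13 kb upstream. All 3 peaks overlapped a peak of each separate set and none of the FLAG control. For the other markers the nearest consensus peak was between 14.6 kb (Pou3f1) and 163 kb (Lefty1) away.

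**Figure D4:**
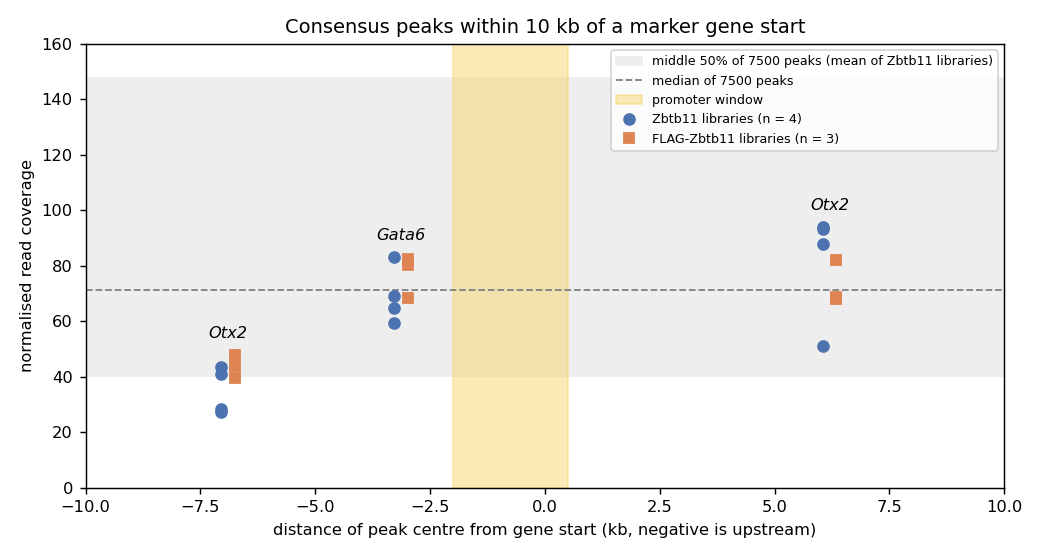
Normalised read coverage (vertical axis, from 0) of the 3 consensus peaks whose centre lies within 10 kb of a marker start (horizontal axis, kb), in each Zbtb11 (circles) and FLAG-Zbtb11 (squares) library. Grey marks the middle 50% of all 7500 peaks, 40.3 to 148, and the dashed line their median of 71.3. No peak lies in the promoter window, and only the upstream Otx2 peak has a Zbtb11 mean under the grey band.

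The coverage at these sites was that of ordinary or weak peaks. The inner Otx2 peak had 87.8, 51.3, 93.2 and 94.0 in the 4 Zbtb11 libraries (81.6 ± 20.4, SD) and 68.1, 68.7 and 82.3 in the 3 FLAG-Zbtb11 libraries (73.0 ± 8.01), and ranked 3318 of 7500 by the Zbtb11 mean. The upstream Otx2 peak had 41.1, 27.3, 43.6 and 28.4 (35.1 ± 8.47) and 39.6, 43.9 and 48.01 (43.8 ± 4.22), and ranked 6052. The Gata6 peak had 83.4, 59.3, 64.8 and 69.2 (69.2 ± 10.3) and 82.3, 80.4 and 68.5 (77.1 ± 7.51), and ranked 3851. Coverage of the inner and the upstream Otx2 peaks did not overlap over the 7 libraries. No ChIP-seq was made after the deletion, so these values are of untreated cells.

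A stretch of each of these Otx2 peaks is shown, to show the sequence of the consensus peaks near this gene, each 200 bases of mm9 on the minus strand of Otx2. Capitals are the letters GGAA on either strand, the core of ETS family sites such as those of NRF-2/GABP. These letters are in 96.7% of the central 200 bases of all consensus peaks. So short a word also occurs often outside such sites, and its share in other sequence was not counted. The longer form CCGGAAG was in neither of the 2 whole Otx2 peaks on either strand, was in the Gata6 peak and was in 39.1% of all 7500 peaks.
Otx2 upstream peak centre, chr14:49294116-49294315: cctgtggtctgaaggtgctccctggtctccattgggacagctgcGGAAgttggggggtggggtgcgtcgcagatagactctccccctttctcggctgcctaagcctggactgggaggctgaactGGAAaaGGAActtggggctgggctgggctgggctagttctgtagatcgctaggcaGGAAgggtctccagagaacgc
Otx2 inner peak, intron beside its centre, chr14:49281150-49281349: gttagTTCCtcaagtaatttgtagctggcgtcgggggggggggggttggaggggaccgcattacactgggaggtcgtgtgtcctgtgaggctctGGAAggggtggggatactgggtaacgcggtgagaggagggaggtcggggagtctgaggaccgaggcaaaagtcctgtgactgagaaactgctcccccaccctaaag
The same 7 letters were in the 250 bases upstream of none of the 10 markers and of 8.22% of protein-coding genes. These windows are shorter than the whole peaks, so this share cannot be set against that of the peaks.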

How the data were processed

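RNA-seq libraries were rRNA-depleted, directional and paired-end. After trimming (TrimGalore, PRINSEQ), the authors used STAR in 2 passes against the transcriptome and HTSeq to count reads per gene, and the deposited values are these raw counts. ChIP-seq reads were trimmed with Cutadapt and mapped to mm9 by the authors using Bowtie 1.1.2. Peaks came from MACS2 within IDR over the replicates together, and the deposited coverage (signal) of each consensus peak was normalised by the authors in DiffBind, with no depth given. Inputs were left out of the present work.

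Gene counts were tested with edgeR 4.0.16 (R 4.3.3, TMM, quasi-likelihood F test, two-sided) over all 9 libraries and 14346 genes above 1 CPM in at least 3 libraries. P values were adjusted by Benjamini-Hochberg over all tested genes, with a threshold of 0.05, and adjusted p values in the text are edgeR's. The method was tested on simulated data. Libraries with the same replicate number were taken as pairs, and the labels do not state a shared batch. Their correlations (0.43 to 0.82 for the same number, 0.53 at most for others) overlapped. They set replicate 1 apart but did not clearly pair replicates 2 and 3. CPM per kb divides by the exon bases not shared with another gene on the same strand, in genes with at least 100 such bases. Near-identical sequence was searched with blastn 2.17.0 (at least 95% identity over 100 bases), and sequence came from mm9. The alternatives were DESeq2 1.42.0, library size scaling, other filters, a robust fit, 2 groups alone, the replicate block, each replicate left out, and other promoter widths and peak sets. All 10 members were named, and list genes where they passed a threshold, at most the 3 largest per list and comparison. The members and lists were chosen with earlier results of these data known. Sox1 was not analysed here. Some genes most like a member and some sequence are not reported here.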

Additional observations from a re-analysis of the deposited data

Results flagged for a closer look

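In the peak inside Otx2, Zbtb11 replicate 2 stood apart at a coverage of 51.3, where the other 3 Zbtb11 libraries had 87.8 to 94.0. Its gap to the nearest library was 0.855 of the range of the 4 libraries, above Dixon's limit for 4 samples. The other 2 peaks near marker starts were not set apart in this way, and chance alone flags about 1 group in 20. Without this replicate the mean of the peak was 91.7 in place of 81.6.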

How the results depend on the processing

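Of the 7 tested markers 0 passed between Zbtb11 KO and EtOH control under each of the 10 alternatives. With the replicate block 2 passed between the 4OHT and EtOH controls and 2 between KO and 4OHT control, and leaving out 1 replicate gave 0 to 2 and 0 to 3. Counts over all genes were 129, 583 and 925 in the 3 comparisons (KO against EtOH control, 4OHT against EtOH control, KO against 4OHT control). They were 323, 4816 and 5010 with the block, and 13 to 212, 13 to 2420 and 82 to 2645 with 1 replicate left out. In the same order DESeq2 gave 180, 1187 and 1469, and fits on the 2 groups alone 111, 175 and 564. The cause of these shifts was not tested. Of 210 refitted log2 fold changes of markers 5 changed sign. In KO against EtOH control this was Lefty1, at -0.0104 to 0.0533 with 1 replicate left out (negative without replicate 1). In 4OHT against EtOH control it was Lefty2, at -0.10 to 0.575 (negative without replicate 2). In KO against 4OHT control they were Lefty1 at -0.358 to 0.0044 and Lefty2 at -0.731 to 0.0888 (positive without replicate 2), and Krt8 at -0.255 to 0.10 (positive without replicate 1). With a window of 5 kb on each side 1 marker (Gata6) had a peak, and with all transcript starts 1 (Otx2). Coverage at member promoters could not be given, as no marker had such a peak. Counts under 50 reads limit Gata6, Fgf5 and T.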
